A study of Mus musculus with 16 samples.

Results

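Liver can make serine from a glycolytic intermediate and pass its carbon to folate, and the 8 genes described here encode enzymes of that route: Phgdh, Psat1 and Psph of serine synthesis, Shmt1 and Shmt2 that split serine into glycine and a folate-bound carbon, and Mthfd2, Mthfd1l and Aldh1l2 of the mitochondrial folate pathway. The 8 genes were chosen by their values in these same libraries, namely the differences between knockout and control livers in males and in females. Those differences are therefore given as description: no p-value is printed for them, and where the count of genes past the threshold is given, nothing is read from it. All 8 were present among the 41079 genes of the count table, and 8 of 8 passed the filter on low counts, which kept 16742 genes. The lists of other pathway genes and of cell type markers were also chosen with earlier results of these data known. Adjusted p values of their genes are printed below, but they are not tests independent of that choice.

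The study profiled bulk liver RNA from mice lacking the glucagon receptor gene, Gcgr, in hepatocytes. LKO mice had floxed Gcgr and carried Cre under the Albumin promoter, and CRE- mice had floxed Gcgr without Cre. Males and females of each genotype were sampled, with 4 mice in each of the 4 groups, numbered here as replicates 1 to 4 within a group. All were on a C57BL/6J background, 20 to 22 months old and fed chow ad libitum. The Albumin promoter drives Cre in hepatocytes, and how far other liver cells kept the gene was not measured. The deletion removes a stretch of Gcgr exons, and because the deposited counts are summed over all exons of a gene, transcripts of the retained exons still count. The library totals ran from 33268424 counts in female LKO replicate 4 to 56488920 in female CRE- replicate 2. Levels are given as counts-per-million values (CPM) after scaling by edgeR's trimmed mean of M values, and errors are standard deviations over the 4 mice of a group unless a standard error is named.

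Serine synthesis starts from 3-phosphoglycerate: Phgdh oxidises it, Psat1 transfers an amino group to the product, and Psph removes the phosphate. Serine then gives its side-chain carbon to tetrahydrofolate, in the cytosol through Shmt1 and in mitochondria through Shmt2, and the mitochondrial enzymes Mthfd2, Mthfd1l and Aldh1l2 carry that carbon on towards formate or carbon dioxide. Adult liver is known more for breaking serine down and for its abundant cytosolic folate enzymes than for making serine, and several genes of the route are known targets of the stress-responsive transcription factor ATF4.

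The Gcgr transcript itself was measured first. In male CRE- livers it stood at 190, 193, 127 and 190 CPM in replicates 1 to 4, and in male LKO livers at 117, 136, 130 and 160 CPM. Male CRE- replicate 3, a library that stood apart from the other male controls over all genes as described below, lay within the LKO range, so the groups overlapped. The log2 fold change was -0.37 (SE 0.24), or -0.51 without that library, and its adjusted p was 0.671 (0.354 to 0.808 over 25 alternatives). Adjusted p values here are those of the edgeR quasi-likelihood fit, adjusted by Benjamini and Hochberg's method over all tested genes, unless another tool is named. Female CRE- livers had 162, 208, 201 and 180 CPM, and female LKO livers 48.8, 132, 119 and 93.6 CPM. All 4 female LKO livers were below all 4 controls, with replicate 1 the lowest, and Gcgr fell (log2 fold change -0.93, SE 0.25, adjusted p 0.0443). That call was lost in 18 of 25 alternatives, where adjusted p ranged from 0.0082 to 0.136 over all 25. It was kept without male CRE- replicate 2, male CRE- replicate 3 or female LKO replicate 2, and lost without any other single library (adjusted p 0.0506 to 0.136, and 0.0802 without female LKO replicate 1). The paper's own assay of Gcgr transcripts in several tissues, shown for each sex, reported a reduction in the liver only.

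Hepatocyte markers were abundant in every library. The most abundant gene of a marker list is named here by its CPM over all libraries, with no correction for length. The 5 of 6 listed markers found in the table, with Alb the most abundant, summed to 85447 ± 15705 CPM in male CRE-, 70493 ± 10111 in male LKO, 112203 ± 9071 in female CRE- and 70431 ± 17878 in female LKO livers. Female LKO replicate 1 stood apart, with the lowest hepatocyte sum (47857 CPM), and the highest sums of macrophage markers (3378 CPM over 6 genes, Cd5l the most abundant) and of proliferation markers (76.2 CPM over 5 genes, Mki67 the most abundant). The other female LKO livers had macrophage sums of 764, 1651 and 926 CPM in replicates 2 to 4, against means of 601, 645 and 601 in the male CRE-, male LKO and female CRE- groups. Proliferation sums averaged 38.2 CPM in female LKO livers and 11.8, 9.78 and 9.87 in those same 3 groups. Neutrophil markers, with S100a9 the most abundant of 5, summed to 70.6, 19.2, 14.9 and 129 CPM in male CRE- and to between 11.9 and 25.9 CPM in male LKO livers, and to between 15.9 and 34.5 CPM in female CRE- and 102, 41.9, 57.4 and 492 CPM in female LKO livers. In the female LKO against CRE- test 1 of 6 macrophage markers rose (Adgre1, log2 fold change 2.15, adjusted p 0.0451), 1 of 4 tested neutrophil markers (Retnlg, 2.86, 0.0331), 1 of 5 endothelial markers (Cdh5, 0.79, 0.0249) and 4 of 5 proliferation markers (Birc5, 1.63, 0.0232, with Cdk1, Ccnb1 and Top2a). All 6 macrophage and all 4 tested neutrophil markers were higher in female LKO livers, with 6 of 6 and 4 of 4 at an unadjusted p under 0.05 and medians of 1.44 and 3.02, and 5 of 5 proliferation markers were as well. The endothelial list was mixed, with 3 genes higher and 2 lower in female LKO livers (Clec4g at -0.70 and Kdr at -0.12), and Stab2 was its most abundant gene, though Clec4g was above it per kilobase in every group. Of these lists edgeR called 0 genes when female LKO replicate 1, or female CRE- replicate 2 or 3, was left out. It called 2 without female CRE- replicate 4, 3 without female CRE- replicate 1, and 12 without female LKO replicate 2.

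Other libraries stood apart as well. The distance between libraries of a group was measured as chi-square per degree of freedom over the tested genes with more than 20 counts in the pair. Male CRE- replicate 3 lay 343 to 446 from the other male controls, which were 94.6 to 128 from each other, and it had the highest hepatocyte sum of its group (101424 CPM) and the lowest macrophage sum (232 CPM). Male LKO replicate 1 lay 206 to 237 from the other male LKO livers, which were 36.6 to 91.9 apart, with the lowest hepatocyte sum of its group (59893 CPM) and the highest macrophage sum (905 CPM). Female CRE- replicate 4 lay 231 to 282 from the other female controls, which were 50.9 to 188 apart, and it had the highest hepatocyte and macrophage sums of its group (125458 and 853 CPM). Female LKO replicate 1 lay 421 to 539 from the other female LKO livers, which were 115 to 356 apart.

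In males the 4 tested neutrophil markers had a median log2 fold change of -1.87, with 0 called and 4 of 4 at an unadjusted p under 0.05, but the sums of male CRE- replicates 2 and 3 lay within the LKO range, so the difference rested on replicates 1 and 4. The remaining tested marker lists had no call by edgeR between LKO and CRE- livers in either sex, and 0 of 5 pancreatic acinar markers passed the filter to be tested. The 5 T and NK cell markers (Nkg7 highest, though Trbc2 was above it per kilobase in every group) had 0 genes with an unadjusted p under 0.05 in both sexes, as did the 5 B and plasma cell markers (Igkc highest) and the 5 cholangiocyte markers (Spp1 highest). Of the 6 stellate cell and fibroblast markers (Dcn highest), 1 had an unadjusted p under 0.05 in males and 0 in females. Krt19 of the cholangiocyte list was higher in female than in male control livers (log2 fold change 1.66, adjusted p 0.03). Pancreatic acinar transcripts, Ctrb1 the most abundant, reached 124 CPM in male CRE- replicate 2 and 508 CPM in female CRE- replicate 2 and at most 1.39 CPM elsewhere. Skeletal muscle transcripts, led by Acta1, summed to 79.9 and 46.4 CPM in male LKO replicates 3 and 4 and to 18.3 CPM in female CRE- replicate 4. They were at or near 0 in all male controls and in male LKO replicates 1 and 2, so no fold is given. By edgeR 3 of 3 had an unadjusted p under 0.05 in males, which rests on LKO replicates 3 and 4, and 0 did in females. The adipocyte list, led by Adipoq, never passed 3.49 CPM and was at or near 0 in male controls, with 2 of 3 at an unadjusted p under 0.05 in males and 1 in females. No gene of any marker list was at 0 in all libraries. In bulk tissue, fewer cells of a type and less RNA per cell cannot be told apart, and the part that these shifts had in any value below was not tested.

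Across the 8 genes, 4 were higher in male LKO livers past an adjusted p of 0.05 (Phgdh, Psat1, Mthfd2 and Aldh1l2), beside 0.221% of all tested genes called higher in males. In females 4 were called higher (Phgdh, Psat1, Mthfd2 and Mthfd1l), beside 2.09% of all tested genes, and 1 was called lower (Shmt1), beside 2.15%. The genes were selected on these contrasts, so nothing is read from those counts. Their median log2 fold change was 1.81 in males and 2.13 in females, and that of all tested genes -0.01 and 0.04. The count in males was 2 (Phgdh and Psat1) when any 1 male CRE- library or male LKO replicate 1 was left out. In females the count of higher members was 1 (Psat1) without female CRE- replicate 2 or 4 and 2 (Psat1 and Mthfd1l) without female CRE- replicate 3. With each sex fitted alone Phgdh and Psat1 were the female members called, and the lower call of Shmt1 was lost. That fit called 5 higher in males, with Psph added. It called higher 54 of all 15595 genes tested in males and 47 of 15744 in females. Under DESeq2 5 were called higher in each sex, adding Psph in males and Aldh1l2 in females. DESeq2 called higher 164 of all 16742 tested genes in males and 1060 in females. The replicate block, and the fit without female LKO replicate 4, each called 5 higher in females, also with Aldh1l2. These fits called higher 613 of 16742 and 206 of 17081 tested genes in females. At an adjusted p under 0.01 the count was 2 in males (Phgdh and Psat1) and 1 in females (Psat1), beside 11 and 14 of all tested genes. The totals over all genes also depended on single libraries. In males 76 genes were called and between 26 and 49 without any 1 of the 8 male libraries, with 50 without female CRE- replicate 2. In females 710 were called, and without female CRE- replicates 1, 2, 3 and 4 in turn the count was 385, 87, 122 and 110, without female LKO replicates 1, 2 and 4 it was 237, 1310 and 404, and without male LKO replicates 2 and 4 it was 428 and 427.

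Phgdh, the first enzyme of serine synthesis, was scarce in control males, at 0.629, 0.535, 1.25 and 1.26 CPM in replicates 1 to 4. In male LKO livers it stood at 33, 18.6, 12.6 and 9.29 CPM. The lowest male LKO liver was far above the highest control, and the LKO group was itself spread 3.55-fold from its lowest to its highest mouse. The means were 0.918 ± 0.390 and 18.4 ± 10.5 CPM (n = 4 each), a 20.0-fold difference, and the fitted log2 fold change was 4.32 (SE 0.46).

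Female controls had 1.97, 1.01, 0.910 and 1.55 CPM of Phgdh, and female LKO livers 4.78, 6.63, 8.93 and 3.88 CPM. All 4 female LKO livers were again above all 4 controls, although the highest of them was below the lowest male LKO liver. Means of 1.36 ± 0.496 and 6.05 ± 2.23 CPM gave a 4.45-fold difference and a log2 fold change of 2.15 (SE 0.42).

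Psat1, the aminotransferase of the second step, had the widest separation of the 8 genes. Male controls held 0.812, 0.446, 0.884 and 1.26 CPM, and male LKO livers 54.6, 22.3, 18.4 and 19.5 CPM. Male LKO replicate 1 was far above the other 3, which lay close together, and no LKO liver came near the controls. The means were 0.850 ± 0.333 and 28.7 ± 17.3 CPM, a 33.8-fold difference with a log2 fold change of 5.07 (SE 0.63). In females, CRE- livers had 1.42, 0.311, 0.383 and 2.14 CPM, and LKO livers 14.9, 8.45, 21.7 and 7.35 CPM. The female groups did not overlap either. The female fold was 12.3, from means of 1.06 ± 0.878 and 13.1 ± 6.65 CPM, with a log2 fold change of 3.64 (SE 0.59).

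Psph, the phosphatase that releases serine, was the one enzyme of the trio already well detected in controls. Male CRE- livers had 6.21, 6.24, 5.15 and 7.06 CPM and male LKO livers 15.6, 11.2, 11.6 and 12.9 CPM. Every male LKO liver was above every male control, at a fold of 2.08 between means of 6.16 ± 0.782 and 12.8 ± 1.97 CPM (log2 fold change 1.06, SE 0.24). Female CRE- livers had 6.48, 6.19, 7.09 and 8.34 CPM and female LKO livers 4.68, 7.5, 10.3 and 11.2 CPM. The female groups overlapped: LKO replicate 1 was the lowest liver of either female group and replicate 4 the highest. The female log2 fold change was 0.26 (SE 0.23), and 0.48 without female LKO replicate 1 but 0.15 and 0.11 without female LKO replicates 3 and 4.

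**Figure D1:**
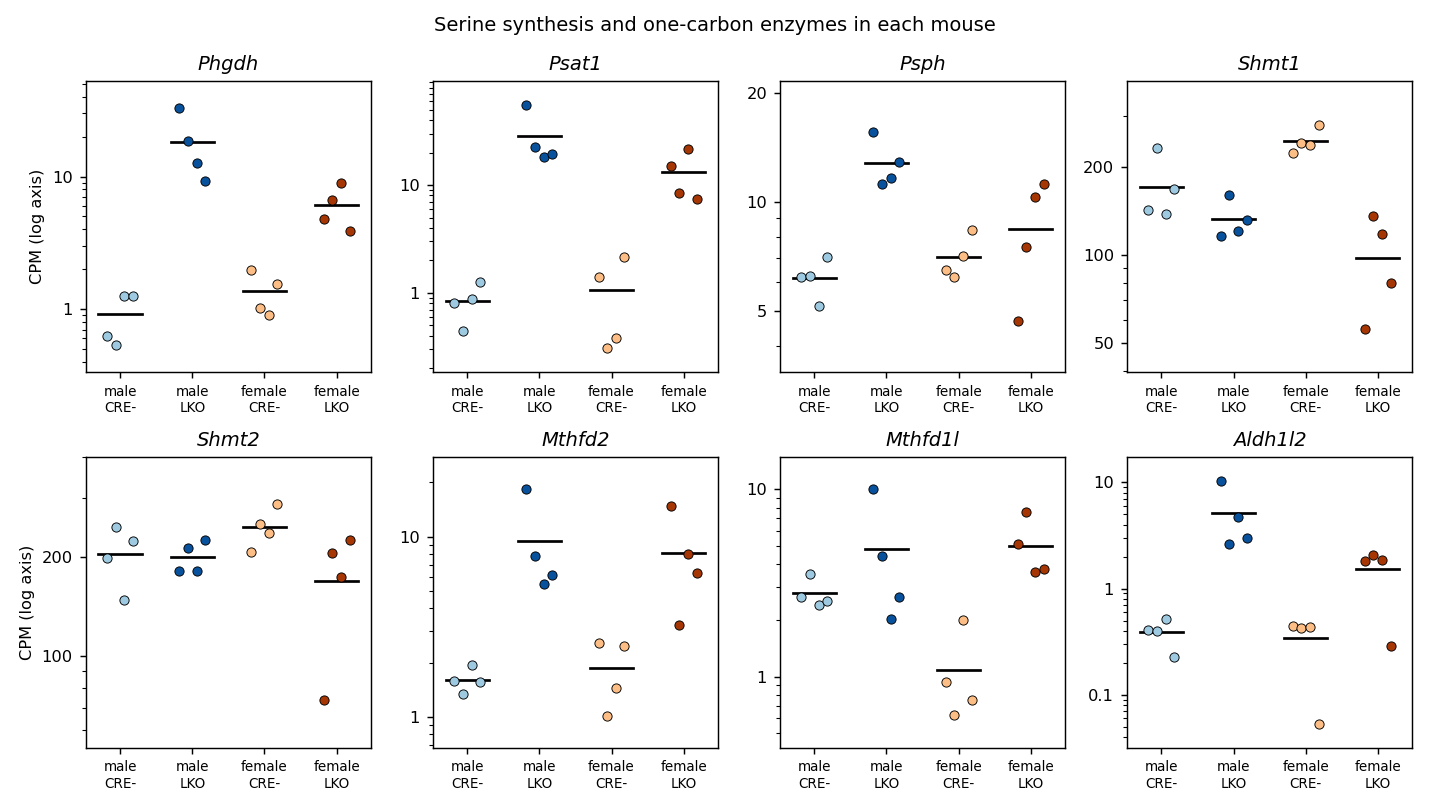
Level of each of the 8 genes in every mouse (CPM, log axis), with 1 point a mouse, bars at group means, and the 4 groups side by side. Phgdh, Psat1 and Mthfd2 in LKO livers sit above all controls of the same sex, Shmt2 overlaps in both sexes, and Shmt1 is lower in female LKO livers.

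Shmt1, the cytosolic hydroxymethyltransferase, was abundant in every liver. Male CRE- livers had 143, 232, 139 and 169 CPM and male LKO livers 116, 161, 121 and 132 CPM. These groups overlapped, with means of 171 ± 43.4 and 132 ± 20.2 CPM and a log2 fold change of -0.36 (SE 0.24) that was -0.18 without male CRE- replicate 2. In females, controls had 224, 242, 238 and 280 CPM, and female LKO livers 56, 137, 118 and 80.1 CPM. All 4 female LKO livers were below all 4 female controls and replicate 1 was the lowest. The female mean was 2.52-fold lower in LKO livers, 97.6 ± 36.4 against 246 ± 23.8 CPM, a log2 fold change of -1.33 (SE 0.25) that was -1.12 without female LKO replicate 1.

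Its mitochondrial counterpart Shmt2 had the smallest log2 fold change of the 8 genes in males. Male CRE- livers had 198, 247, 148 and 224 CPM and male LKO livers 181, 213, 181 and 224 CPM, with overlapping groups and a log2 fold change of -0.03 (SE 0.27). Its sign depended on single libraries, from -0.17 without male CRE- replicate 3 to 0.074 without male CRE- replicate 2. In females, controls had 207, 250, 237 and 288 CPM and female LKO livers 73.6, 205, 174 and 224 CPM. Female LKO replicate 1 was far below the rest, and replicate 4 lay within the control range. The female log2 fold change was -0.54 (SE 0.27), and -0.27 without female LKO replicate 1. Hepatocyte markers were also lowest in that liver, and their part in the lower Shmt1 and Shmt2 values was not tested.

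Mthfd2, a mitochondrial methylenetetrahydrofolate dehydrogenase and cyclohydrolase, was low in male controls at 1.58, 1.34, 1.95 and 1.55 CPM. In male LKO livers it was 18.5, 7.79, 5.44 and 6.16 CPM. The lowest LKO liver was clear of the highest control, and LKO replicate 1 was far above the other males. The fold was 5.90, from 1.60 ± 0.255 to 9.46 ± 6.08 CPM, and the log2 fold change 2.56 (SE 0.47), or 1.99 without male LKO replicate 1. In females, controls had 2.57, 1.01, 1.44 and 2.46 CPM and female LKO livers 14.9, 3.24, 7.99 and 6.31 CPM. The female groups did not overlap, but LKO replicate 2 was close to the highest control. Means of 1.87 ± 0.767 and 8.10 ± 4.93 CPM differed 4.33-fold, with a log2 fold change of 2.12 (SE 0.47) that was 1.66 without female LKO replicate 1.

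Mthfd1l, the mitochondrial formate-tetrahydrofolate ligase, had its higher control values in males. Male CRE- livers had 2.68, 3.52, 2.42 and 2.54 CPM and male LKO livers 10, 4.41, 2.04 and 2.65 CPM. Male LKO replicates 3 and 4 lay within or below the control range and only replicates 1 and 2 above it. The male log2 fold change of 0.78 (SE 0.46) was 0.10 without male LKO replicate 1. Female CRE- livers had 0.932, 0.623, 2.01 and 0.748 CPM and female LKO livers 5.09, 7.58, 3.60 and 3.76 CPM. Every female LKO liver was above every female control. The female fold was 4.64, from 1.08 ± 0.635 to 5.01 ± 1.84 CPM, with a log2 fold change of 2.21 (SE 0.48).

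Aldh1l2, the mitochondrial 10-formyltetrahydrofolate dehydrogenase, had the lowest level of the 8 genes in every group but male LKO. Male CRE- livers had 0.406, 0.401, 0.520 and 0.225 CPM, resting on 20, 18, 20 and 10 raw counts, and male LKO livers 10.3, 2.64, 4.77 and 3.03 CPM. All male LKO livers were above all male controls and replicate 1 was again the highest. The male fold was 13.4, from 0.388 ± 0.122 to 5.2 ± 3.55 CPM, with a log2 fold change of 3.74 (SE 0.66). In females, controls had 0.444, 0.428, 0.431 and 0.0535 CPM and female LKO livers 1.81, 2.09, 1.87 and 0.289 CPM. Female LKO replicate 4, with 10 raw counts, lay among the controls, while the other 3 LKO livers were above all of them, and female CRE- replicate 4 had only 2 raw counts. The female log2 fold change was 2.14 (SE 0.63), from means of 0.339 ± 0.191 and 1.52 ± 0.827 CPM.

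By overlap alone, 5 of the 8 genes had all 4 male LKO livers above all 4 male controls (Phgdh, Psat1, Psph, Mthfd2 and Aldh1l2), beside 3.57% of all tested genes, and 0 had all 4 below, beside 2.92%. In females 4 had all LKO livers above (Phgdh, Psat1, Mthfd2 and Mthfd1l), beside 5.2%, and Shmt1 alone had all below, beside 6.42%. These counts come from the contrasts that chose the genes and are given as description.

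Levels of different genes were compared as mean CPM per kilobase of exon. In male CRE- livers Shmt2 (88.6 ± 18.4) and Shmt1 (77.5 ± 19.7) led, and their spreads overlapped although Shmt2 was above Shmt1 within each of the 4 livers. Psph followed at 1.57 ± 0.200, then Mthfd2 at 0.678 ± 0.108, Phgdh at 0.490 ± 0.208, Mthfd1l at 0.3 ± 0.0537, Psat1 at 0.136 ± 0.0535 and Aldh1l2 at 0.0420 ± 0.0132 CPM per kilobase. Among these neighbours Mthfd2 and Phgdh overlapped in spread, as did Phgdh and Mthfd1l. In male LKO livers the same first pair led, with spreads apart, at 86.7 ± 9.54 and 60.2 ± 9.16, but Phgdh came next at 9.81 ± 5.60 CPM per kilobase, ahead of Psat1 (4.61 ± 2.79), Mthfd2 (4.0 ± 2.57) and Psph (3.27 ± 0.502), and these 4 overlapped in spread, except that Phgdh stood clear of Psph. Aldh1l2 (0.563 ± 0.385) and Mthfd1l (0.514 ± 0.391) closed the male LKO order and did not differ beyond their spread.

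In female controls Shmt1 (112 ± 10.8) and Shmt2 (107 ± 14.6) led in CPM per kilobase with overlapping spreads, Shmt1 being above Shmt2 within each of the 4 livers, and the order below them was Psph, Mthfd2, Phgdh, Psat1, Mthfd1l and Aldh1l2, from 1.79 ± 0.243 down to 0.0368 ± 0.0207. Mthfd2 and Phgdh again lay within their spread, at 0.790 ± 0.324 and 0.728 ± 0.265, and so did Psat1 and Mthfd1l, at 0.171 ± 0.141 and 0.116 ± 0.0684. Mthfd1l and Aldh1l2 overlapped in spread as well. In female LKO livers Shmt2 (73.4 ± 29.1) and Shmt1 (44.3 ± 16.5) led and overlapped in spread. Mthfd2 (3.43 ± 2.08), Phgdh (3.24 ± 1.19), Psph (2.15 ± 0.750) and Psat1 (2.11 ± 1.07) formed a middle group whose spreads overlapped, above Mthfd1l (0.539 ± 0.198) and Aldh1l2 (0.164 ± 0.0896).

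The 3 steps of serine synthesis thus held different proportions in the groups. Per kilobase, Psat1 stood at 8.69% of Psph in male CRE- livers and 135% in male LKO livers, and at 9.13% and 111% in female CRE- and LKO livers. Within male LKO livers that share was 221% in replicate 1 and between 95.6% and 125% in the other 3. Within female LKO livers the share was 201%, 70.9%, 133% and 41.4% in replicates 1 to 4. Phgdh was set beside Sds, the serine dehydratase through which liver degrades serine. The mean ratio of Phgdh to Sds per kilobase was 0.382% in male CRE- livers and 31.9% in male LKO livers, and in females 0.821% and 7.03%. By mouse this ratio ran from 9.24% to 53.5% in male LKO livers and from 2.64% to 11.8% in female LKO livers. Sds itself stood at 254, 210, 152 and 202 CPM in male CRE- livers and 48.4, 33.3, 107 and 34.4 CPM in male LKO livers, without passing the test in males (log2 fold change -1.87, adjusted p 0.109) or in females (-0.61, 0.480).

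The mitochondrial enzymes were also compared with their cytosolic or other counterparts, again per kilobase. The ratio of Shmt2 to Shmt1 was 1.16 ± 0.163 in male CRE- (1.01 to 1.33), 1.45 ± 0.152 in male LKO, 0.951 ± 0.0486 in female CRE- and 1.69 ± 0.660 in female LKO livers. The female ratio ran from 1.26 to 2.68 in LKO livers, with replicate 4 the highest, and from 0.882 to 0.987 in the controls. Mthfd2 was level with Mthfd2l, a second mitochondrial dehydrogenase of the same step, in controls, with a ratio of 1.01 ± 0.160 in males and 1.22 ± 0.599 in females. In LKO livers that ratio was 5.31 ± 3.06 in males, with 9.87 in replicate 1 and at most 4.23 in the others, and 3.98 ± 1.82 in females, while Mthfd2l had log2 fold changes of 0.15 (adjusted p 0.892) and 0.36 (0.480).

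Mthfd1, the cytosolic enzyme that holds the dehydrogenase, cyclohydrolase and synthetase activities in a single protein, outweighed its mitochondrial relatives in every group. It stood at 235, 281, 306 and 221 CPM in male CRE- livers and 158, 191, 207 and 177 CPM in male LKO livers, a log2 fold change of -0.51 that did not pass the test (adjusted p 0.295). In females it stood at 269, 306, 291 and 298 CPM in controls and 155, 211, 174 and 137 CPM in LKO livers. All LKO livers were below all controls in both sexes, and in females Mthfd1 fell (log2 fold change -0.78, SE 0.17, adjusted p 0.0231). Per kilobase, Mthfd2 was 1.09% of Mthfd1 in male CRE- and 9.57% in male LKO livers, and 1.14% and 8.90% in females. In male LKO livers that share was 20.5% in replicate 1 and 7.14%, 4.61% and 6.09% in the others. Mthfd1l was 0.484% and 1.24% of Mthfd1 in male CRE- and LKO livers, and 0.167% and 1.3% in females. The male LKO shares were 2.82%, 1.03%, 0.44% and 0.668%, so the mean rests largely on replicate 1 and replicates 3 and 4 lay near the controls (0.353% to 0.56%).

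Aldh1l1, the cytosolic counterpart of Aldh1l2 and an abundant liver protein, was 424 ± 61.0 CPM per kilobase in male CRE- and 240 ± 41.7 in male LKO livers (log2 fold change -0.82, adjusted p 0.0872). It was 549 ± 80.2 in female CRE- and 262 ± 45.7 in female LKO livers, and it fell in females (log2 fold change -1.06, SE 0.20, adjusted p 0.0129). All LKO livers were below all controls of their sex. Aldh1l2 amounted to 0.0102% of Aldh1l1 in male CRE-, 0.254% in male LKO, 0.00715% in female CRE- and 0.0658% in female LKO livers. Male LKO replicate 1 had 0.579% and the other 3 between 0.125% and 0.176%, and female LKO replicate 4 had 0.0106% and the other 3 between 0.0739% and 0.0923%. The female call for Aldh1l1 was lost without female CRE- replicate 4 (adjusted p 0.0514), and that for Mthfd1 without female CRE- replicate 2, 3 or 4 or female LKO replicate 1 or 4 (adjusted p 0.0512 to 0.083). Fitting each sex alone also ended both calls, and over all 25 alternatives adjusted p ran from 3.79e-06 to 0.0617 for Aldh1l1 and from 0.000247 to 0.083 for Mthfd1.

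**Figure D2:**
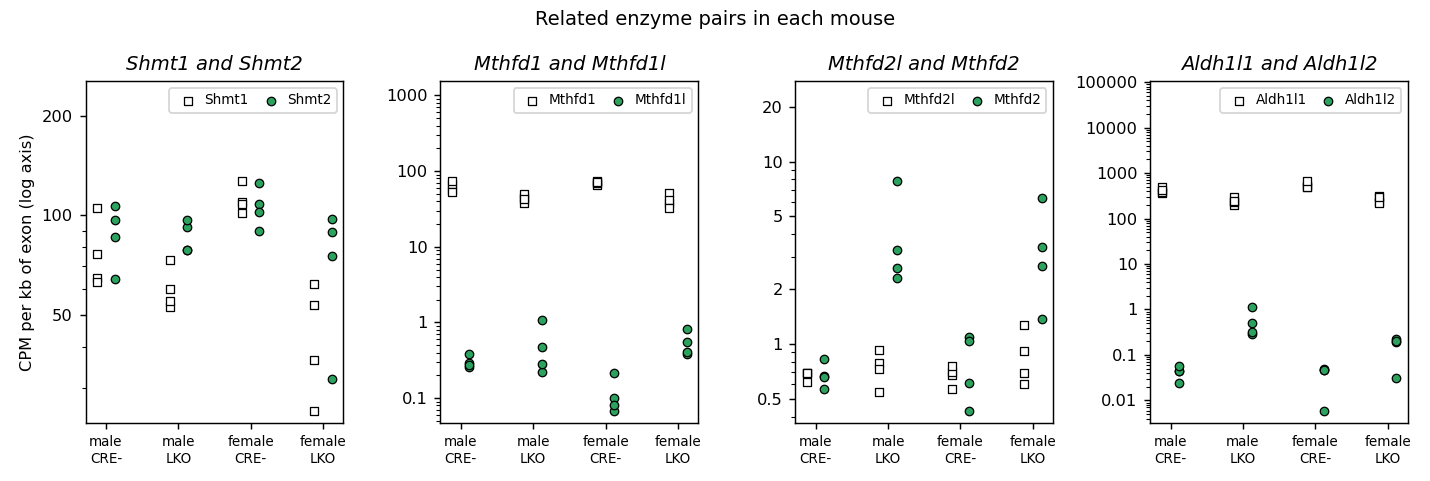
Mitochondrial members (circles) and their cytosolic or other counterparts (squares) in every mouse, in CPM per kilobase of exon on a log axis, for the 4 groups. Shmt1 and Shmt2 lie close together, and Mthfd1l and Aldh1l2 stay below Mthfd1 and Aldh1l1 in every liver, with a smaller mean gap in LKO livers. Mthfd2 lies near Mthfd2l in controls and above it in every LKO liver.

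Within the male LKO group a single mouse carried the highest values: replicate 1, the library set apart over all genes above, was the highest of the 4 for Phgdh, Psat1, Psph, Mthfd2, Mthfd1l and Aldh1l2, and the lowest for Shmt1. Male LKO replicate 3 was the lowest for Psat1, Shmt2, Mthfd2 and Mthfd1l. No female LKO mouse led in that way. Replicate 1 was highest for Mthfd2 and lowest for Psph, Shmt1 and Shmt2, replicate 2 highest for Shmt1, Mthfd1l and Aldh1l2, replicate 3 highest for Phgdh and Psat1, and replicate 4 highest for Psph and Shmt2 and lowest for Phgdh, Psat1 and Aldh1l2. From the lowest to the highest LKO mouse Mthfd1l spanned 4.91-fold in males and 2.10-fold in females, Mthfd2 3.39-fold and 4.59-fold, and Aldh1l2 3.91-fold and 7.24-fold. Without male LKO replicate 1 the male log2 fold change was 3.86 for Phgdh, 4.54 for Psat1, 0.93 for Psph and 3.15 for Aldh1l2.

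Across the 16 libraries, which share the 4 groups and so are not independent points, Pearson's r of log2 CPM was 0.96 between Phgdh and Psat1, 0.94 between Psat1 and Mthfd2, and 0.88 between Phgdh and Mthfd2. Aldh1l2 had r = 0.85 with Phgdh, Psph 0.76 and Mthfd1l 0.55. Shmt1 and Shmt2 paired with each other (r = 0.77), and Shmt1 ran opposite to Mthfd2 (r = -0.74). These values are descriptions of a pattern that the choice of genes partly fixed.

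Control females were compared with control males, a contrast that was not itself used to choose the genes. The same control livers were however the reference in the contrasts that were used, and the fit over all 4 groups takes its filter and its estimate of spread from LKO livers too. Between the sexes 0 of the 8 genes was called by edgeR, beside 0.92% of all tested genes, and 0 were called by DESeq2 or by limma-voom. An unadjusted p under 0.05 was found for 2 of the 8, beside 2121 of all 16742 tested genes. The largest difference was in Mthfd1l, whose mean was 2.59-fold higher in male than in female controls (female minus male log2 fold change -1.37, SE 0.47, adjusted p 0.232, range 0.0756 to 0.501 over 24 alternatives). All 4 male controls were above all 4 female controls for that gene. Shmt1 had a log2 difference of 0.53 (adjusted p 0.383) and Phgdh of 0.57 (adjusted p 0.574), both higher in females. The other 5 had log2 differences from -0.18 in Aldh1l2 to 0.31 in Psat1. The median of the 8 was 0.24 and that of all tested genes -0.01. Psat1 had a log2 difference of -0.31 without female CRE- replicate 4, and Aldh1l2 one of 0.13 without that same mouse, so neither direction held without it. Phgdh had one of 0.34 without female CRE- replicate 1, and that of Mthfd2 (0.22) was 0.025 without the same mouse. Those of Psph (0.19) and Shmt2 (0.27) were 0.057 and 0.13 when female CRE- replicate 4 and male CRE- replicate 3 respectively were left out. The 154 genes called between control sexes numbered 68 and 74 without male CRE- replicates 1 and 3, and 82, 71, 90 and 71 without female CRE- replicates 1 to 4.

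The difference between the LKO effects of the sexes was fitted as an interaction term. It is built from the same contrasts that chose the genes, so its values for the 8 are description, with no p. Over all 16742 genes edgeR called 0 (0%), although 2672 had an unadjusted p under 0.05, while DESeq2 called 371 and limma-voom 29. EdgeR itself called 10 without female LKO replicate 2, 14 when female LKO replicate 3 or male LKO replicate 1 was left out, and 2 when female LKO replicate 4 or male CRE- replicate 2 was. The female minus male log2 difference was -2.17 for Phgdh (SE 0.58), -1.59 for Aldh1l2, -1.44 for Psat1, -0.97 for Shmt1, -0.79 for Psph, -0.51 for Shmt2 and -0.44 for Mthfd2. Mthfd1l alone had the opposite sign, at 1.44. Several of these values depended on single mice or on the tool. Without male LKO replicate 1 that of Psat1 was -0.90, that of Aldh1l2 -0.997 and that of Mthfd2 0.12, and without female CRE- replicate 4 that of Psat1 was -0.82. Without female LKO replicate 1 Shmt2 stood at -0.23 and Mthfd2 at -0.89. Under limma-voom the Psat1 difference was -0.0071, that of Mthfd2 -0.10 and that of Psph -0.49.

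Other genes of the pathway were taken from lists by role, which were chosen with earlier results of these data known. Of 10 cytosolic folate enzymes, 0 passed edgeR's test in males, with 3 at an unadjusted p under 0.05, and DESeq2 and limma-voom each called 1 higher and 1 lower. In females 3 of the 10 fell, Mthfd1 and Aldh1l1 as above and Ftcd, which feeds carbon from histidine breakdown into folate (log2 fold change -1.17, SE 0.27, adjusted p 0.0273), beside 2.15% of all tested genes called lower. DESeq2 also called 3 lower, and limma-voom 3 lower and 1 higher. Over all 16742 tested genes DESeq2 called 749 lower and 1060 higher in females, and limma-voom 903 and 1073. In males DESeq2 called 175 lower and 164 higher, and limma-voom 93 and 55. The list's median log2 fold change was 0.12 in males and -0.32 in females. Over the alternatives it ran from -0.096 to 0.157 in males, so its sign was not fixed, and from -0.53 to -0.18 in females. Without female LKO replicate 1 only Aldh1l1 was still called in females and the median was -0.18. Ftcd also lost its call without female CRE- replicate 2, 3 or 4 or female LKO replicate 4 (adjusted p 0.0629 to 0.0846).

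Of 9 other mitochondrial folate and glycine cleavage genes 0 passed in males by edgeR, DESeq2 or limma-voom, with 0 at an unadjusted p under 0.05. In females 3 fell: Gldc, the decarboxylase of the glycine cleavage system (log2 fold change -1.34, adjusted p 0.0273), and Dmgdh (-1.06, 0.0201) and Sardh (-1.10, 0.029), the dehydrogenases that pass carbons of dimethylglycine and sarcosine to folate. DESeq2 called 3 lower and limma-voom 4. Of all 16742 tested genes edgeR called 2.15% lower in females, DESeq2 749 genes and limma-voom 903. Sardh had the highest level of the list. Medians were -0.02 in males and -0.60 in females. Over the alternatives they ran from -0.13 to 0.10 in males, with either sign, and from -0.67 to -0.41 in females. Without female LKO replicate 1 only Dmgdh was still called. Each of the 3 calls was also lost without female CRE- replicate 2, 3 or 4, those of Gldc and Sardh without female LKO replicate 4, and that of Gldc without female LKO replicate 3 (adjusted p 0.0516 to 0.102 over these).

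Serine and glycine use was represented by 17 tested genes of 18. In males 0 passed by edgeR, with 4 at an unadjusted p under 0.05 and 1 called lower by each of DESeq2 and limma-voom. In females 5 fell: Agxt, which transaminates glyoxylate to glycine (log2 fold change -1.32, adjusted p 0.042), Gcat of threonine breakdown (-0.997, 0.0305), the serine racemase Srr (-0.84, 0.0321), Cbs, which condenses serine with homocysteine (-0.78, 0.0447), and the glycerate kinase Glyctk (-0.70, 0.0388). DESeq2 called 7 lower and limma-voom 8, beside 749 and 903 of all 16742 tested genes. All 5 had every female LKO liver below every female control. That goes with having been called, and 2.15% of all tested genes were called lower in females and 6.42% had all 4 LKO livers below. The glycine methyltransferase Gnmt had the highest level, at 2059 CPM per kilobase in female CRE- and 846 in female LKO livers, without passing (adjusted p 0.0848). The list's medians were -0.01 in males, where the sign changed to 0.00 with upper-quartile scaling, and -0.57 in females. Single libraries moved the male median further, to -0.13 without male CRE- replicate 1 and to 0.048 without male CRE- replicate 2. When female LKO replicate 1 was left out, edgeR called 0 of the 17 in females (adjusted p 0.0799 to 0.12 for these 5). Calls for all 5 were likewise lost without female CRE- replicate 2, 3 or 4, that of Srr without female LKO replicate 4, and that of Gcat without female LKO replicate 3. Those of Cbs, Agxt and Glyctk were also lost without male CRE- replicate 1, male LKO replicate 2 or 4, female CRE- replicate 1 or female LKO replicate 3. Cbs and Agxt lost theirs without female LKO replicate 4 too, Cbs without male CRE- replicate 4, and Glyctk without male LKO replicate 3 or female LKO replicate 2. Upper-quartile scaling ended the calls of Cbs and Agxt, fitting with no filter those of Cbs and Glyctk, and requiring at least 10 counts in every library that of Cbs. Over all the libraries so left out adjusted p lay between 0.0518 and 0.134.

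In the same female contrast the hepatocyte list had a median of -0.69 on the log2 scale, with 0 of 5 called by edgeR and 2 at an unadjusted p under 0.05, while macrophage and proliferation markers had medians of 1.44 and 1.72. The part of these marker shifts in the female falls of the last 3 lists was not tested. Fitting each sex alone ended every female call in these lists except that of Gldc.

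Among 13 tested transporters of 14, Slc38a4, an amino acid carrier of hepatocytes, fell in both sexes. It stood at 1074, 1183, 1218 and 919 CPM in male CRE- livers and 555, 548, 536 and 501 CPM in male LKO livers (log2 fold change -1.04, adjusted p 0.0414), and its female log2 fold change was -0.84 (adjusted p 0.0367). Sfxn1, the mitochondrial serine carrier, fell in females (-0.95, adjusted p 0.0232). The related carrier Slc38a3 had the highest level, with log2 fold changes of -0.99 (adjusted p 0.209) in males and -0.76 (0.145) in females. Medians were -0.21 in males and 0.51 in females, where 8 of the 13 were higher, up to 2.24 in Slc38a5, and 5 lower. The male median was -0.058 without male CRE- replicate 3. In females DESeq2 called 1 higher and 2 lower and limma-voom 2 higher and 3 lower, and in males they called 2 and 1 lower. Of all 16742 tested genes edgeR called 39 lower in males and 360 in females. DESeq2 called 175 and 749 lower in males and females, and limma-voom 93 and 903. The male call for Slc38a4 was lost without any 1 male library or female CRE- replicate 1, 2 or 3 (adjusted p 0.0504 to 0.114). Its female call was lost without male LKO replicate 2, 3 or 4, any female CRE- library, or female LKO replicate 1, 3 or 4 (adjusted p 0.0501 to 0.115), and that of Sfxn1 without female CRE- replicate 2, 3 or 4 (adjusted p 0.0636 to 0.084). Fitting each sex alone also ended both female calls, and fitting with no filter ended that of Slc38a4.

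The supply of 3-phosphoglycerate and the use of folate carbon in purines had few or no calls. Of 5 genes of 3-phosphoglycerate supply, led by Gapdh, 0 passed in either sex by edgeR, DESeq2 or limma-voom, with 0 at an unadjusted p under 0.05 and medians of -0.13 and -0.14. Over the alternatives those medians ran from -0.26 to -0.017 in males and from -0.36 to -0.016 in females. Of 10 de novo purine genes, led by Paics, 0 passed by edgeR or DESeq2 in either sex. In females 2 of those 10 had an unadjusted p under 0.05 and limma-voom called 2 lower, and in males 0 did. Of all 16742 tested genes 3584 had an unadjusted p under 0.05 in females and 1595 in males. The purine medians were -0.00 in males, where the sign depended on scaling, and -0.14 in females.

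Among 12 kinases of eIF2 and transcription factors of the stress response, 1 rose in males and 1 in females by edgeR, beside 0.221% and 2.09% of all tested genes, and the medians were 0.32 and 0.28. DESeq2 and limma-voom each called 1 higher in males and 2 in females. Atf5, the most abundant of the list, rose in males from 290, 345, 302 and 451 CPM to 579, 719, 775 and 807 CPM (log2 fold change 1.05, SE 0.20, adjusted p 0.0317). Its female log2 fold change was -0.16 (adjusted p 0.694), and the difference between the sexes was -1.22 (adjusted p 0.14). DESeq2 called that difference lower for 1 gene of the list. Myc rose in females (log2 fold change 2.06, adjusted p 0.0231), and 3.49 ± 0.784 CPM in controls stood against 14.6 ± 6.70 CPM in LKO livers. Atf4 itself stood at 91.2, 77.7, 44.3 and 98.8 CPM in male CRE- and 143, 120, 108 and 120 CPM in male LKO livers. All male LKO livers were above all male controls for Atf4, with a log2 fold change of 0.66 that did not pass (adjusted p 0.405), and in females the groups overlapped (0.18, adjusted p 0.743). The Atf5 call was lost without male CRE- replicate 1, 2 or 3, male LKO replicate 2, 3 or 4 or female CRE- replicate 4 (adjusted p 0.0573 to 0.117), and when each sex was fitted alone. The Myc call was lost without female CRE- replicate 2, 3 or 4 or female LKO replicate 4 (adjusted p 0.0521 to 0.0846).

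Of 14 other known ATF4 targets, 2 rose in males and 3 in females by edgeR, with medians of 1.02 and 0.80. Over the alternatives the medians ran from 0.90 to 1.12 in males and from 0.46 to 0.98 in females. DESeq2 called 7 higher in males and 5 in females, limma-voom 6 and 6, and in edgeR 11 and 8 had an unadjusted p under 0.05. Over all 16742 tested genes DESeq2 called 164 higher in males and 1060 in females, limma-voom 55 and 1073, and in edgeR 37 and 350 were called higher and 1595 and 3584 had an unadjusted p under 0.05. Asns, which makes asparagine, was at 0.527, 0.490, 0.468 and 0.854 CPM in male CRE- livers and 87.9, 44.0, 29.5 and 26.4 CPM in male LKO livers. Female CRE- livers had 1.91, 0.467, 0.287 and 0.214 CPM of Asns and female LKO livers 20.7, 12.9, 24.8 and 7.58 CPM. No control came near an LKO liver in either sex, and Asns rose in males by 6.32 on the log2 scale (SE 0.68, adjusted p 0.000425) and in females by 4.50 (SE 0.62, adjusted p 0.00274), calls that were kept whichever library was left out. Trib3, a pseudokinase, rose in males (2.03, adjusted p 0.0409) and females (1.60, 0.0381), and the stress-induced Sesn2 in females (1.15, 0.0332). The male Trib3 call was lost without any 1 male library but male CRE- replicate 4, and without female CRE- replicate 4 (adjusted p 0.0594 to 0.133). Upper-quartile scaling and the replicate block also ended it. In females Trib3 lost its call without male LKO replicate 2, 3 or 4, any female CRE- library or female LKO replicate 1 or 3 (adjusted p 0.05 to 0.133), and Sesn2 without any female CRE- library or female LKO replicate 1 or 3 (0.0546 to 0.0955). Fitting each sex alone ended both of these female calls. Nars1 had the highest level of the list in 3 groups, 43.0 CPM per kilobase in male CRE- livers, and Eif4ebp1 in male LKO livers at 62.2.

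In all 8 pathway lists outside the members, edgeR called 0 genes between control sexes, where DESeq2 called at most 2 of a list and limma-voom at most 1, and between 0 and 5 genes of a list had an unadjusted p under 0.05.

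**Figure D3:**
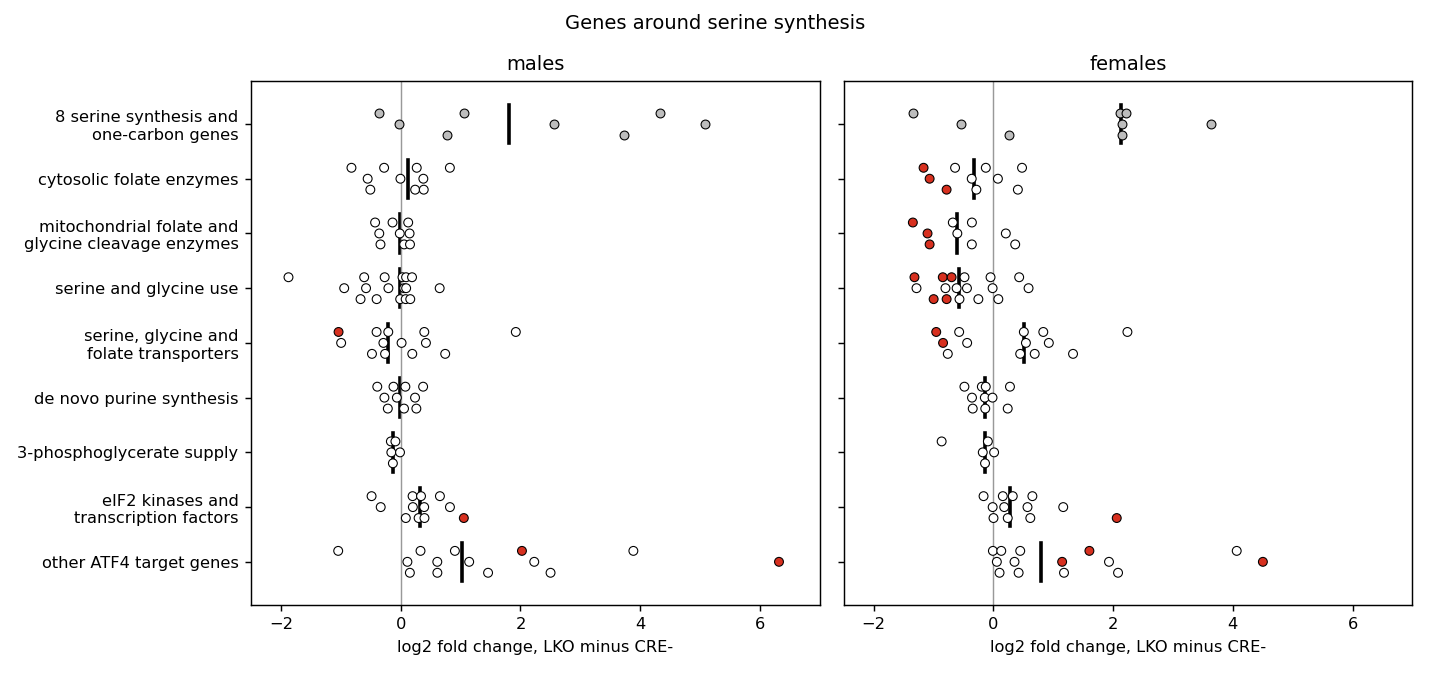
Log2 fold change of LKO over CRE- for every gene of the member list and the pathway lists, in males and in females, with black bars at list medians. Members are grey because the contrasts chose them, and in the other lists filled red points passed an adjusted p of 0.05 and open points did not.

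Outside the 8 genes, the 5 whose log2 CPM ran most like Phgdh over the 16 libraries were Asns (r = 0.95), Adm2 (0.95), Fgf21 (0.92), Ren1 (0.91) and Pck2 (0.90). Fgf21, a hormone made by liver, averaged 1.64 CPM in male CRE- and 61.0 in male LKO livers, and 1.90 and 31.2 CPM in females. For Mthfd2 the 5 were Aldh18a1 (r = 0.92), Pycr1 (0.92), App (0.91), Pck2 (0.91) and Asns (0.90). Aldh18a1 and Pycr1 encode enzymes of proline synthesis and Pck2 the mitochondrial phosphoenolpyruvate carboxykinase.

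Promoter sequences, from 250 bases before to 50 bases after each transcription start, were taken from RefSeq (GRCm38.p6) because members that move together were to be set side by side. The table held 8 promoters for 7 of the 8 genes, with 2 starts for Psat1, among 32851 promoters of 27025 genes. The missing gene was Aldh1l2. Each motif was searched on both strands. TGATGNAA, the C/EBP-ATF composite element, lay in 3.97% of all promoters, in 0 of the 8 member promoters, and in 4 of the 8 genes named above as most like Phgdh or Mthfd2 (Asns, Fgf21, Pck2 and Pycr1). TGACNNNGC, the antioxidant response element, lay in 12.4% of all promoters and in 2 members, on the reverse strand of Phgdh from base -53 and of Psph from base 4, and in 2 of those 8 like genes (Asns and App). TGACGTCA, the cAMP response element, lay in 1.79% of all, in 0 members and in 0 like genes, and CACGTG, the E-box, in 7.15% of all, in 0 members and in 2 like genes (Fgf21 and Aldh18a1). Guanine and cytosine made up 47.7% of the Phgdh promoter, 60.3% at the first start of Psat1, 55.7% for Mthfd2 and 42.7% for Shmt2, against a median of 52.7% over all promoters. The Psat1 start had 20 CpG pairs, Psph 28 and Phgdh 11, against a median of 7. The 120 bases before the start are shown for the 3 genes with LKO above CRE- livers in both sexes without overlap, with capitals marking TGACNNNGC where it occurs, at chr3:98339970-98340089 for Phgdh, chr19:15925060-15925179 for Psat1 and chr6:83317605-83317724 for Mthfd2, all on the minus strand and written 5′ to 3′. A match is a description of letters in a window and no more.
Phgdh: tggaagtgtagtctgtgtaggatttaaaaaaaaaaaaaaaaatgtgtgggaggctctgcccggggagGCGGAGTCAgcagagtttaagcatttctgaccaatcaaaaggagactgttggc
Psat1: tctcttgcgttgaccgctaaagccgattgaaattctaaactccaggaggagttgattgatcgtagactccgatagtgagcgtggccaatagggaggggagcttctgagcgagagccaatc
Mthfd2: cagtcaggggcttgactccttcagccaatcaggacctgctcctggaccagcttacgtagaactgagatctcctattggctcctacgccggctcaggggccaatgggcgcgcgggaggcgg

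The 4 TGATGNAA matches among the genes most like the members are shown with their flanks, again from RefSeq (GRCm38.p6), 5′ to 3′ on the gene's own strand, with capitals marking the match. They lie at chr6:7693210-7693258 for Asns, chr7:45615596-45615655 for Fgf21 and chr11:120643818-120643877 for Pycr1 on the minus strand, and at chr14:55540137-55540196 for Pck2 on the plus strand. In Asns and Pycr1 the letters read in the direction of the gene, and in Fgf21 and Pck2 on the reverse strand.
Asns: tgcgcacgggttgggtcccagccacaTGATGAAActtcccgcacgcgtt
Fgf21: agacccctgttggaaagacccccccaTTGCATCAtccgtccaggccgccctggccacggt
Pck2: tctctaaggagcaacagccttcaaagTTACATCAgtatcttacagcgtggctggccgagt
Pycr1: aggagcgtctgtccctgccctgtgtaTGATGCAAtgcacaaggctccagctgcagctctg

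In the annotation behind the counts (GRCm39) the 8 genes lay on 6 chromosomes, and only Mthfd1l was on the plus strand. Phgdh spanned chr3:98220487-98247285, Psat1 chr19:15882487-15902423 and Psph chr5:129842622-129864318. Shmt1 lay at chr11:60679723-60702062, Mthfd2 at chr6:83282686-83302926, and chromosome 10 held Shmt2 (chr10:127352992-127358313), Mthfd1l (chr10:3918282-4117081) and Aldh1l2 (chr10:83320386-83370008), far apart. Shmt2 shared 32 exon bases with Ndufa4l2 on the opposite strand, a gene at 1.86, 1.19, 2.02 and 4.20 CPM in male CRE-, male LKO, female CRE- and female LKO livers, far below Shmt2 itself. Mthfd1l shared 145 exon bases with Gm40591 on the opposite strand, which was at or near 0 in every group. Gm25515, at chr10:4054313-4054469, lay inside Mthfd1l with 0 shared exon bases and was at 0 CPM in every group.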

How the data were processed

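Poly(A)-selected RNA of 16 livers was sequenced, and the authors deposited raw counts per gene made with STAR 2.7.1a and featureCounts (Subread 2.0.6) on GRCm39, with the summed exon length of each gene in its own column. Each mate of a pair was counted as a read, with the setting for reverse-stranded libraries. The labels do not say whether the kit keeps strand. If it does not, a large part of the fragments would be uncounted in every library alike, which would lower all raw counts printed here. Genes were filtered with filterByExpr (minimum count 10), scaled by TMM and fitted over the 4 groups with edgeR 4.0.16 (quasi-likelihood) in R 4.3.3, with Benjamini-Hochberg adjustment over 16742 genes and a threshold of 0.05. The pipeline was tested on simulated data. The contrasts were LKO minus CRE- in each sex, their difference, and female minus male CRE-. DESeq2 1.42.0, limma 3.58.1 (voom with quality weights), other scalings and filters, a replicate block, each sex alone and the omission of each library were the alternatives. The standard error of a log2 fold change is its size over the square root of F, and spreads across mice are standard deviations.

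The members and lists were chosen with earlier results of these data known. Genes named beyond the 8 are Gcgr, the counterparts Mthfd1, Mthfd2l and Aldh1l1, genes past the threshold in each pathway list (at most 6) with its most abundant gene, likewise in each marker list (at most 3), and the 5 genes most correlated with Phgdh and with Mthfd2. The limit of 3 was passed in the proliferation list, where all 4 called genes are named. Genes that overlap a member were named too. Sds, Atf4, Clec4g, Kdr, Trbc2 and Slc38a5, outside that rule, were added after their values were seen. No sample was left out.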

Additional observations from a re-analysis of the deposited data

Results flagged for a closer look

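A mouse was marked where the highest or lowest value of its group lay far from the next, measured as the gap to the nearest mouse divided by the range of the group. Of 36 sets of 4 mice checked (8 genes and Gcgr in 4 groups), 4 were marked, and chance marks about 1 in 20 groups. Psat1 was far higher in male LKO replicate 1 (54.6 CPM) than in the other 3, with a gap of 0.890 of the range. Aldh1l2 was far lower in female CRE- replicate 4 (0.0535 CPM, 2 raw counts), with a gap of 0.961 of the range, and in female LKO replicate 4 (0.289 CPM, 10 raw counts), with a gap of 0.844. Gcgr was far lower in male CRE- replicate 3 (127 CPM) than in the other male controls, with a gap of 0.949.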

How the results depend on the processing

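In males 76 genes were called, against 22 at an adjusted p under 0.01, 339 by DESeq2, 148 by limma-voom and 63 with a replicate block, and 26 to 111 with 1 library left out. In females 710 were called, against 51, 1809, 1976 and 1244 under the same alternatives, 119 with each sex fitted alone, and 87 to 1310 with 1 library left out. For the sex difference, 0 by edgeR (2672 at an unadjusted p under 0.05) stood against 371 by DESeq2, 29 by limma-voom, 12 with no filter, 0 with a replicate block, and 0 to 14 with 1 library left out. Between control sexes 154 stood against 54 at an adjusted p under 0.01, 506 by DESeq2, 329 by limma-voom, 78 with at least 10 counts in every library, 161 with a replicate block, and 68 to 213 with 1 library left out. The members' median log2 fold change in males was 1.81, and 1.05 with at least 10 counts in every library, where Aldh1l2 was not fitted, with 1.46 to 1.93 when 1 library was left out. In females it was 2.13, with 1.87 to 2.27. The sex difference of Phgdh was -2.14 under DESeq2, given as description. Signs reversed, with no call, under limma-voom between control sexes for Psat1 (-0.66), Mthfd2 (-0.12) and Aldh1l2 (0.063). With 1 library left out the control difference ran from -0.31 to 0.62 for Psat1, -0.36 to 0.13 for Aldh1l2 and -0.041 to 0.17 for Gcgr, the sex difference from -0.89 to 0.12 for Mthfd2, and the male difference of Shmt2 from -0.17 to 0.074. Beyond the change of threshold, the fewer genes or the fewer mice of an alternative, the cause was not tested. Of 398 values of the members in the LKO contrasts 397 stayed within the 95% interval of the main estimate. The exception was Psat1 in females under limma-voom (4.82, against an upper end of 4.80). For Gcgr and other pathway genes 185 of 621 values no longer passed, 435 were unchanged in call and sign, and 1 changed sign. The 621 include Gcgr in males, for the sex difference and between control sexes, where it had not passed in the main fit either, so the unchanged values are not all calls. The labels do not say whether replicate numbers pair mice of the 2 genotypes. Correlations of same-numbered livers ran from -0.01 to 0.17. They were exceeded by the highest correlation with any other number in 4 of 8, which cannot decide whether mice were paired. Depth limits Aldh1l2, at 2 to 22 counts per control library. Without length correction the order of the members differed, with Mthfd1l ahead of Mthfd2 and Phgdh in male controls.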
